A study of Homo sapiens with 34 samples.

Results

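The genes of the translation machinery named by m6Am peaks in HEK293T cells, a human embryonic kidney line, are described here. They were taken from the 3 deposited peak lists by gene name: cytosolic ribosomal proteins and their relatives, initiation and elongation factors with their relatives, and aminoacyl-tRNA synthetases, leaving out the RPS6K kinases. An antisense RNA that carries the name of a factor gene, EIF1B-AS1, also counts as a member. The list for HEK293T cells has 22 such lines of 1652, the list for hypoxia has 4 of 390 and the list for heat shock has 0 of 74.

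m6Am is a dimethylated adenosine that can follow the m7G cap of an mRNA, and PCIF1 catalyses its formation where transcription begins with adenosine. In m6Am-seq, capped fragments are enriched with an m7G antibody, one part is treated with the demethylase FTO, and both parts are enriched with an m6A antibody. From wild-type cells there were 2 libraries of input, 2 of m7G-IP, 2 of FTO (+) m6A-IP and 2 of FTO (−) m6A-IP. Heat-shocked cells, hypoxic cells and their untreated controls each gave 1 input library and 2 of each other kind. The lists hold 1 set of peaks per condition with neither peak score nor read count, and the stress lists add the authors' own ratio between conditions, which was not used. Thus depth is unknown and there is no error between replicates. Shares are given with 95% Wilson intervals, which cover counting error over genes or spans only.

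Ribosomal protein mRNAs are the classical 5′-TOP mRNAs. They begin with cytidine followed by a run of pyrimidines, a start that ties their translation to mTOR signalling, and several translation factor mRNAs carry the same kind of start. Translation factors guide the ribosome through initiation and elongation, and aminoacyl-tRNA synthetases charge tRNAs with amino acids in the cytosol or in mitochondria. A cytidine start offers no cap-adjacent adenosine, so the ribosomal protein genes were set against the translation factors.

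The starts below are a selection from the genes described here, with both kinds and the guanosine start of EIF4E. Of the 15 listed starts inside HEK293T member spans, 6 begin with adenosine, 5 with guanosine, 3 with cytidine and 1 with thymidine. Not shown are the adenosine start of EIF3J, the 5′-TOP start of WARS2 and the other guanosine starts, all inside spans. The 5′-TOP starts that are shown lie outside the spans, so the selection does not represent the 15. All starts were taken from the RefSeq promoter table (GRCh38.p14) and placed on GRCh37 by exact match. Each window holds 10 bases before the start and 20 from it onward. The capital marks the first transcribed base, and at a 5′-TOP start, here C followed by at least 4 pyrimidines, the capitals mark the whole pyrimidine run.
RPS23, chr5:81574154-81574183, minus strand: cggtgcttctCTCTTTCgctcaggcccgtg
RPS25, chr11:118889034-118889063, minus strand: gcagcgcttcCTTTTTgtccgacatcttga
RPL9, chr4:39460523-39460552, minus strand: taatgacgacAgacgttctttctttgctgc
EEF1B2, distal start, chr2:207024323-207024352, plus strand: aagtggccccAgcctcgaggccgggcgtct
EEF1B2, proximal start, chr2:207024609-207024638, plus strand: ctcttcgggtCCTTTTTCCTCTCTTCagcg
EIF5B, chr2:99953842-99953871, plus strand: ctgagaactcAcaccatatgtgtcctgttc
EIF4ENIF1, chr22:31885809-31885838, minus strand: gccgggctgcAgttacggcggctgaagaga
MARS2, chr2:198570083-198570112, plus strand: acgtgctgtcAgaacgccgcctcctccgct
YARS2, chr12:32908812-32908841, minus strand: caatcccagcAttcccttcgtgccgctacc
EIF4E, chr4:99850265-99850294, minus strand: tggagcggttGtgcgatcagatcgatctaa

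The HEK293T list names 2 cytosolic ribosomal protein genes, RPS23, part of the decoding centre of the small subunit, and RPL9 of the large subunit. These are 2 of 79 genes of the family (2.53%, interval 0.697 to 8.77%). It names 8 of 49 translation factor genes (16.3%, 8.51 to 29.0%) and 4 of 37 aminoacyl-tRNA synthetase genes (10.8%, 4.29 to 24.7%). Over all 20149 protein-coding genes of the annotation, 7.3% are named. The translation factor interval lies above that share, while the intervals of ribosomal proteins and synthetases include it. The 20149 genes were not limited to those expressed in HEK293T cells. Whether mRNA level plays a part in how families stand to that share was not tested. Limited to spans of at most 1000 bp, 4 of 49 translation factor genes (8.16%, 3.22 to 19.2%) and 2 of 37 synthetase genes (5.41%, 1.5 to 17.7%) are named. Both intervals include the 3.58% of all protein-coding genes named under the same limit. The upper bound for ribosomal proteins, 8.77%, reaches just past the lower bound for translation factors, 8.51%. No test between families was made. Among 78 mitochondrial ribosomal protein genes, whose mRNAs are not known as 5′-TOP mRNAs, 5 are named (6.41%, 2.77 to 14.1%). With spans of at most 1000 bp, 0 of these 78 are named (upper bound 4.69%), beside the same 2 of 79 cytosolic ribosomal protein genes.

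The spans of the named ribosomal protein genes do not sit on their starts. Neither the RPS23 span nor the RPL9 span covers an annotated transcription start site (TSS) of its gene. The RPS23 span, chr5:81574469-81574649, lies outside the annotated gene on its upstream side, 254 bp from the nearest TSS, and covers 0 exonic bases. The RPL9 span, chr4:39459871-39460159, begins 349 bp downstream of the nearest TSS. It overlaps exons 2 to 3 of the 8 exons of the canonical transcript, and 189 of its 289 bp are annotated as coding. In both cases the nearest annotated TSS of any gene belongs to the named gene. As the sequences show, the RPS23 start is a cytidine with a pyrimidine run. The RefSeq start of RPL9 is an adenosine, and a run of at least 5 pyrimidines begins 5 bases after it.

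All 14 spans named for a translation factor, a factor regulator or relative, or a synthetase cover at least 1 annotated TSS of the named gene (lower bound 78.5%), and their interval includes the 91.4% of all matched lines. Over the 21 member lines whose name matched the annotation, 18 do so (85.7%, 65.4 to 95%), an interval that includes the same 91.4%. The third member without a covered TSS is the pseudogene RPL32P3.

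**Figure D1:**
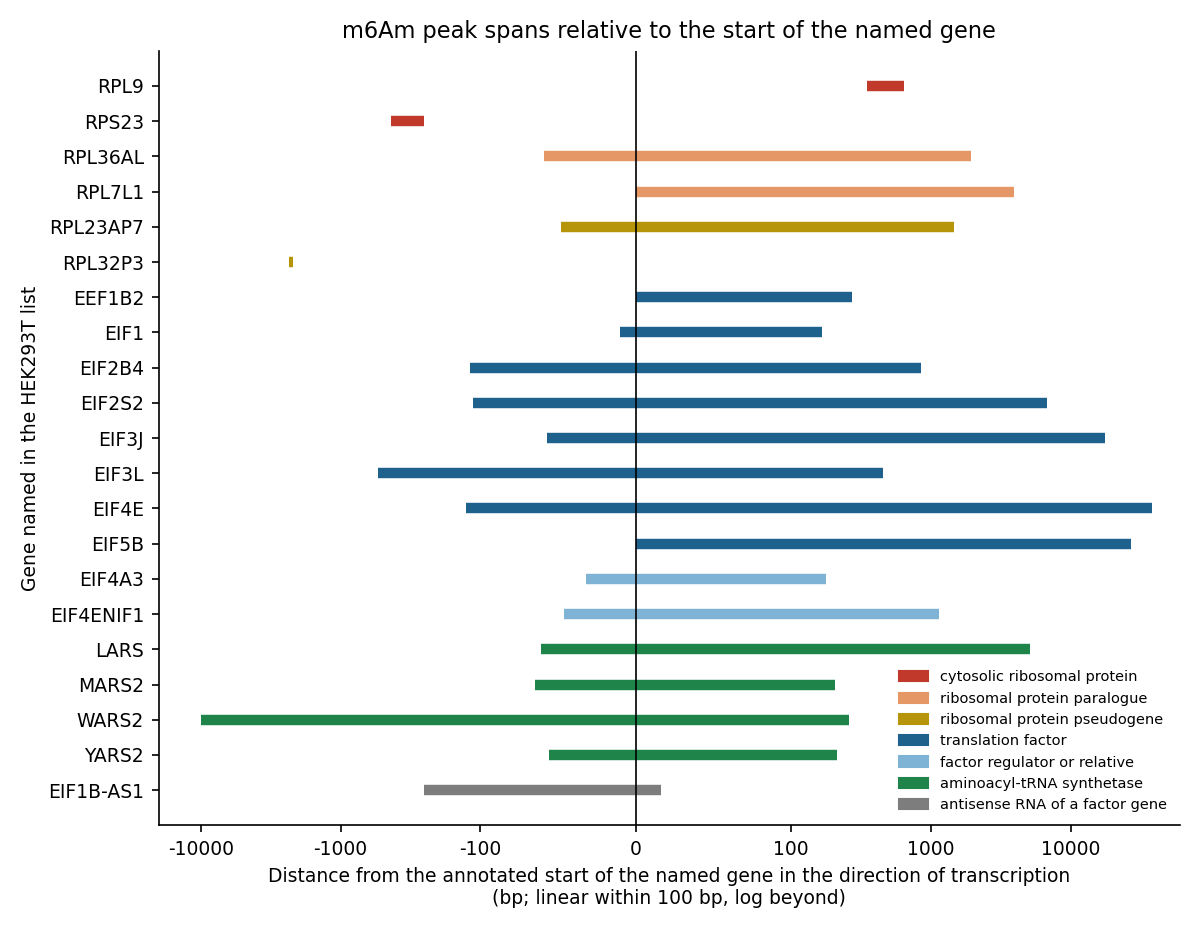
Spans of 21 HEK293T lines along the direction of transcription, in bp from the annotated start of the named gene that is nearest to the 5′ end of the span. The axis is linear within 100 bp of the start and logarithmic beyond. RPL9, RPS23 and RPL32P3 do not reach the line at 0, and the other 18 bars do.

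Counting a gene where any HEK293T span covers one of its annotated TSSs, whatever name the line carries, also gave 2 of 79 ribosomal protein genes, but other ones. They are RPS25 and RPS28, both of the small subunit, and each lies on the opposite strand of the gene that names the line. The RPS25 case is the span of TRAPPC4, chr11:118889179-118889626, which covers 3 of the 6 annotated RPS25 TSSs and 4 TSSs of TRAPPC4. The nearest pair of TSSs of both genes is 72 bp apart. The RPS28 case is the span of NDUFA7, a complex I subunit gene. This span, chr19:8381507-8386297, covers 1 of 4 annotated RPS28 TSSs, and the nearest NDUFA7 TSS lies 217 bp from it. The NDUFA7 end of the span is 38 bp from a TSS of that gene, whereas the RPS28 TSS is 4535 bp from the other end. The deposited lists carry no strand, so the transcript behind such a span cannot be told apart from the lines alone.

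By the same count, 10 of 49 translation factor genes (20.4%, 11.5 to 33.6%) and 6 of 37 synthetase genes (16.2%, 7.65 to 31.1%) have a TSS in a span, against 8.06% of all protein-coding genes. Limited to spans of at most 1000 bp, 5 translation factor genes (10.2%, 4.44 to 21.8%), 3 synthetase genes (8.11%, 2.80 to 21.3%) and 1 of 79 ribosomal protein genes (1.27%, 0.224 to 6.83%) do, against 3.51% of all. Under that limit the translation factor interval still lies above the overall share, and the intervals of synthetases and ribosomal proteins include it. The genes added are EIF1B, EIF4E2, YARS and EARS2. EIF1B, a close relative of EIF1, has 3 TSSs in the span named EIF1B-AS1, chr3:40351173-40351441. There the nearest EIF1B TSS is 25 bp from the span's start, and the antisense TSS is 252 bp from its end. EIF4E2, a cap-binding relative of EIF4E, has 11 of its 14 TSSs in a span named TIGD1, which covers 0 TSSs of TIGD1. YARS, the cytosolic tyrosyl-tRNA synthetase gene, has 7 TSSs in a span named S100PBP. EARS2, the mitochondrial glutamyl-tRNA synthetase gene, has 1 of 13 TSSs in a span named UBFD1. Its RefSeq starts lie 196 and 221 bp outside that span.

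The RefSeq table lists 1 or a few starts per gene. All first bases, BCA contexts and 5′-TOP calls given here are read at these annotated starts, which need not be the starts used in HEK293T cells. A CAGE library of the same cells, a method that maps capped 5′ ends, was not analysed here. Of 77 ribosomal protein starts placed on GRCh37, 0 lie in a HEK293T span (upper bound 4.75%). Of 57 translation factor starts, 10 do (17.5%, 9.82 to 29.4%), as do 4 of 39 synthetase starts (10.3%, 4.06 to 23.6%). Over all protein-coding genes, 6.6% of 21319 starts do. Counted by gene, this is 0 of 62 ribosomal protein genes, 8 of 41 translation factor genes and 3 of 30 synthetase genes. Over all protein-coding genes with a placed start, it is 1138 of 15223. The starts of the 4 ribosomal protein genes described above lie outside the spans, RPS28 by 83 bp, RPS25 by 126 bp, RPS23 by 296 bp and RPL9 by 383 bp. Starts of 1 gene share spans, so the intervals over starts are too narrow.

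**Figure D2:**
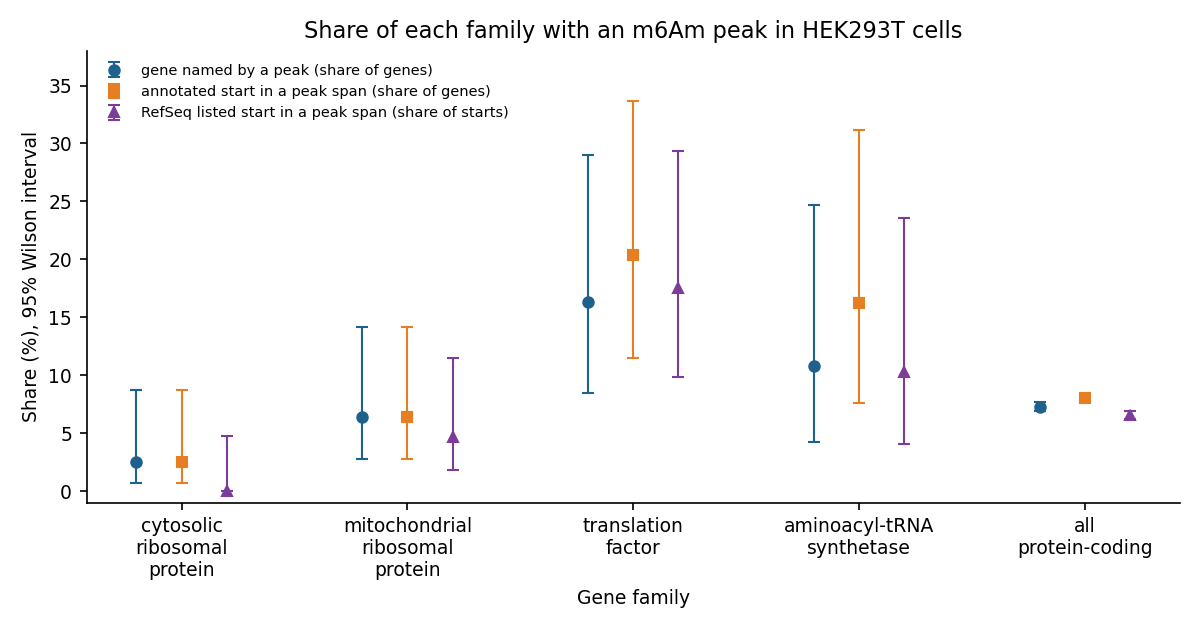
Share of each family, in percent, with a peak in the HEK293T list by 3 rules, with 95% Wilson intervals. The rules by name and by annotated TSS give shares of genes, and the rule by RefSeq start gives a share of starts. Among the sets plotted, which are cytosolic and mitochondrial ribosomal proteins, translation factors, synthetases and all protein-coding genes, translation factors lie highest by each rule, from 16.3 to 20.4%. Cytosolic ribosomal proteins lie lowest, from 0 to 2.53%.

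The start table shows how the families differ in their first bases. A start was listed for 63 of 79 ribosomal protein genes (79.7%), 41 of 49 translation factor genes (83.7%) and 30 of 37 synthetase genes (81.1%). For ribosomal proteins this is under 80%, as it is for all protein-coding genes (76.0%). A comparison over those full sets is therefore void, and their shares describe the listed genes alone. Among the listed ribosomal protein genes, 47 of 63 had a 5′-TOP start (74.6%, 62.7 to 83.7%). Among translation factors 12 of 41 did (29.3%, 17.6 to 44.5%), and among synthetases 2 of 30 (6.67%, 1.85 to 21.3%). The share over all listed protein-coding genes was 6.32%. Genes with several starts were counted where any start qualified.

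An adenosine as first base was listed for 13 of 63 ribosomal protein genes (20.6%, 12.5 to 32.2%), 15 of 41 translation factor genes (36.6%, 23.6 to 51.9%) and 16 of 30 synthetase genes (53.3%, 36.1 to 69.8%), against 58.1% of all listed protein-coding genes. PCIF1 targets are often described in a BCA context, with the adenosine after C, and C, G or T before that. Such a start was listed for 3 ribosomal protein genes (4.76%, 1.63 to 13.1%), 10 translation factor genes (24.4%, 13.8 to 39.3%) and 13 synthetase genes (43.3%, 27.4 to 60.8%), against 40.9% of all listed protein-coding genes. Among listed genes, the synthetase share is near that overall share, and the translation factor interval ends below it. Counted by start, the translation factor share is 22.8% (13.8 to 35.2%), an interval that includes the 33.0% of all listed starts.

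**Figure D3:**
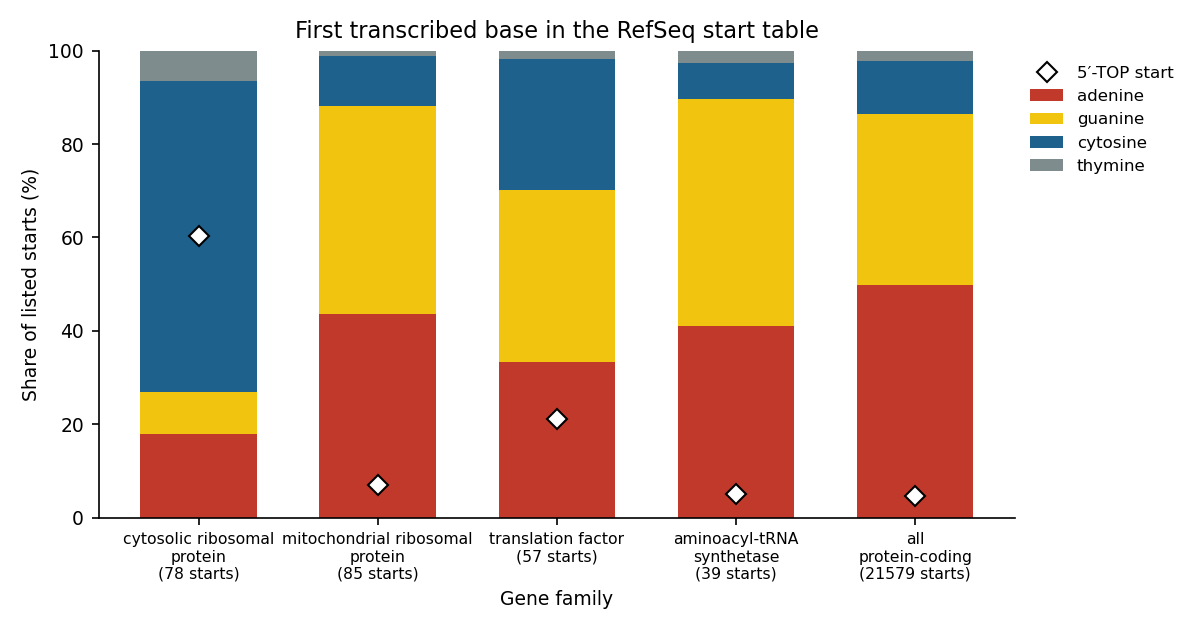
First transcribed base as a share of all listed RefSeq starts, in percent, for 4 families and for all protein-coding genes, with diamonds for 5′-TOP starts. Cytosine begins 66.7% of the 78 ribosomal protein starts and 11.4% of the 21579 starts of all protein-coding genes.

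Within families, the kind of start and the presence of a peak can be set side by side. No span holds any of the 12 5′-TOP starts placed for translation factors (upper bound 24.2%) or of the 46 placed for ribosomal proteins (7.71%). The spans hold 4 of 19 adenosine starts of translation factors (21.1%, 8.51 to 43.3%) and 5 of 21 guanosine starts (23.8%, 10.6 to 45.1%). For ribosomal proteins, 0 of 14 adenosine starts lie in a span (upper bound 21.5%). For synthetases, 2 of 16 adenosine starts (12.5%, 3.5 to 36.0%), 0 of 19 guanosine starts (upper bound 16.8%) and 1 of 2 5′-TOP starts (9.45 to 90.5%) do. For mitochondrial ribosomal proteins, 0 of 37 adenosine starts (upper bound 9.41%) and 4 of 38 guanosine starts (10.5%, 4.17 to 24.1%) do. The adenosine starts of ribosomal proteins and of translation factors were not distinguishable at this number of starts. Over all protein-coding genes, a span holds 7.49% of adenosine starts (7.0 to 8.0%), 5.87% of guanosine starts (5.37 to 6.42%), 5.48% of cytidine starts (4.64 to 6.46%) and 5.39% of 5′-TOP starts (4.15 to 6.99%). Among 4 listed starts of other known 5′-TOP genes, 0 lie in a span (upper bound 49.0%). VIM, the intermediate filament gene, is the 1 gene of 6 in that list that a line names (16.7%, 3.01 to 56.4%), an interval that includes the 7.3% of all protein-coding genes named.

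Of the 22 names in the HEK293T list, 16 had a listed start, 15 had one placed on GRCh37 and 13 had at least 1 inside their span. These 13 names had 15 starts in their spans, of which 6 begin with adenosine, 5 with guanosine, 3 with cytidine and 1 with thymidine. The adenosine share is 40% (19.8 to 64.3%), and of the 1407 starts of all protein-coding genes that lie in HEK293T spans 56.6% begin with adenosine. The adenosine starts are those of EEF1B2, EIF3J, EIF4ENIF1, EIF5B, MARS2 and YARS2, and 5 of them are in a BCA context, EIF3J being the exception. These 5 of 15 starts (33.3%, 15.2 to 58.3%) are near the 35.4% of the 1407 starts overall. The 1 start of these with a 5′-TOP sequence belongs to WARS2. EIF2S2, EIF3L, LARS, RPL23AP7, RPL32P3 and RPS14P3 had no listed start, and the window of EIF4A3 was not placed.

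EEF1B2, a subunit of the exchange factor that recharges the elongation factor eEF1A with GTP, is the 1 gene named of 8 on the elongation factor list (12.5%, 2.24 to 47.1%), an interval that includes the 7.3% of all. That list also holds EEF1E1, a part of the synthetase complex, and EEF2K, a kinase. Without both, a choice made after the data were seen, 17% of translation factor genes are named in place of 16.3%. The EEF1B2 span, chr2:207024318-207024588, begins exactly on an annotated TSS and is 271 bp long. All of it is exonic in annotated transcripts of the gene, but it overlaps no exon of the canonical transcript and 0 coding bases. The distal RefSeq start, an adenosine in a BCA context, lies 15 bp inside. The proximal start has a run of 16 pyrimidines and lies 31 bp beyond the end of the span. EEF1B2 is thus a translation factor gene with both kinds of start, and the span holds the adenosine one.

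Initiation factors gave 7 of 41 genes (17.1%, 8.53 to 31.3%), against 7.3% of all protein-coding genes. With spans of at most 1000 bp they gave 3 of 41 (7.32%, 2.52 to 19.4%), and that interval includes the 3.58% of all. EIF1 controls start codon selection, and its span, chr17:39845127-39845304, is 178 bp long and lies mostly in exon 1. EIF2S2 encodes the beta subunit of eIF2, which delivers the initiator tRNA, and EIF2B4 a subunit of its exchange factor eIF2B. EIF3J and EIF3L are 2 of 13 genes for eIF3 subunits. EIF4E, the cap-binding protein, is the 1 gene named of 10 in the eIF4 group. EIF5B, the GTPase of subunit joining, has a span whose start falls exactly on an annotated TSS, 18 bp before the RefSeq start shown above. This span also holds a TSS of TXNDC9, a protein-coding gene on the opposite strand, 23624 bp from the span's end. The EIF4E span, chr4:99812468-99850411, is 37944 bp long, the longest of the members, and 4.92% of it is exonic in EIF4E. Its RefSeq start is a guanosine 127 bp inside the span.

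EIF3L shows how a name can part from the position. Its span, chr22:38244338-38245325, ends exactly on a TSS of ANKRD54, a gene on the minus strand. It covers 1 EIF3L TSS, 537 bp from its start, and no exon of the canonical EIF3L transcript. Of 9 genes on the list of factor regulators and relatives, 2 are named (22.2%, 6.32 to 54.7%), and the interval includes the 7.3% of all. They are EIF4A3, the helicase of the exon junction complex, and EIF4ENIF1, which carries eIF4E into the nucleus. Their spans of 210 and 1189 bp both overlap exon 1.

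The synthetases named in HEK293T cells are 1 of 20 cytosolic ones (5%, 0.888 to 23.6%) and 3 of 17 mitochondrial ones (17.6%, 6.19 to 41.0%). Both intervals include the 7.3% of all protein-coding genes. Counted by annotated TSS in any span, the mitochondrial interval lies above the 8.06% of all, at 4 of 17 (23.5%, 9.56 to 47.3%). The cytosolic interval includes that share, at 2 of 20 (10%, 2.79 to 30.1%). With spans of at most 1000 bp, the mitochondrial count by TSS was 3 of 17 (17.6%, 6.19 to 41.0%), above 3.51%. By name under that limit it was 2 of 17 (11.8%, 3.29 to 34.3%), an interval that includes the 3.58% of all. Both counts by TSS exceed those by name through EARS2 alone, whose RefSeq starts lie outside the span. Without EARS2 they would equal the counts by name, whose intervals include 8.06% and, under the limit, 3.51%. LARS, for leucine in the cytosol, has a span of 5183 bp, chr5:145557138-145562320, with 13 annotated TSSs. MARS2 and YARS2, for methionine and tyrosine in mitochondria, have short spans of 271 and 269 bp, chr2:198570028-198570298 and chr12:32908619-32908887. Their RefSeq starts, both adenosines in a BCA context, lie 65 and 56 bp inside the spans. WARS2, for tryptophan in mitochondria, has a span of 10248 bp, chr1:119683019-119693266, whose start falls exactly on a TSS of WARS2-AS1. The 4 WARS2 TSSs it covers lie near that same end, so the upstream 9989 bp are outside the gene.

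Paralogues of ribosomal proteins gave 2 lines and pseudogenes 3. RPL36AL, a close relative of RPL36A, and RPL7L1, a relative of RPL7 that acts in ribosome assembly, are 2 of 8 paralogue genes (25%, 7.15 to 59.1%), an interval that includes the 7.3% of all. With spans of at most 1000 bp, 0 of the 8 are named (upper bound 32.4%), which is not distinguishable from the 3.58% of all. Their spans cover 1 and 9 annotated TSSs of the named gene. The RefSeq start of RPL36AL is a cytidine 59 bp inside the span, without the pyrimidines of a 5′-TOP start. The RefSeq start of RPL7L1 is a guanosine exactly at the start of the span, chr6:42847354-42851300. The 3 pseudogenes are RPL23AP7, RPL32P3 and RPS14P3. The RPL32P3 span, chr3:129118134-129118282, lies 2182 bp upstream of the pseudogene and ends exactly on a TSS of an unnamed lncRNA. The span named RPS14P3, chr1:19923471-19950014, begins exactly on a TSS of MICOS10, a gene for a subunit of the complex that shapes mitochondrial cristae. That name had no match in the annotation, and an unnamed processed pseudogene begins 11137 bp inside the span.

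An end exactly on the TSS of a gene with another name was found in 4 of the 22 lines (18.2%, 7.31 to 38.5%): EIF3L, RPL32P3, RPS14P3 and WARS2. Over all lines the share is 3.33%. The 5′ end of the span lies within 50 bp of an annotated TSS of the named gene in 7 of 21 members (33.3%, 17.2 to 54.6%), against 69.8% of all matched lines. Within 100 bp the counts are 12 of 21 members (57.1%, 36.5 to 75.5%) and 79.5% of all. Where the span covers a TSS of its gene, the median distance from its 5′ end to the first such TSS is 58 bp in 18 members and 20 bp in 1471 lines overall.

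The spans of the members are about as long as the others. Their median is 1088.5 bp, from 149 to 37944 bp, and that of all lines is 1228.5 bp. At most 1000 bp were spanned by 11 of 22 members (50%, 30.7 to 69.3%) and by 47.3% of all lines. Both cytosolic ribosomal protein spans are short, at 181 and 289 bp, and both paralogue spans are longer than 1000 bp.

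**Figure D4:**
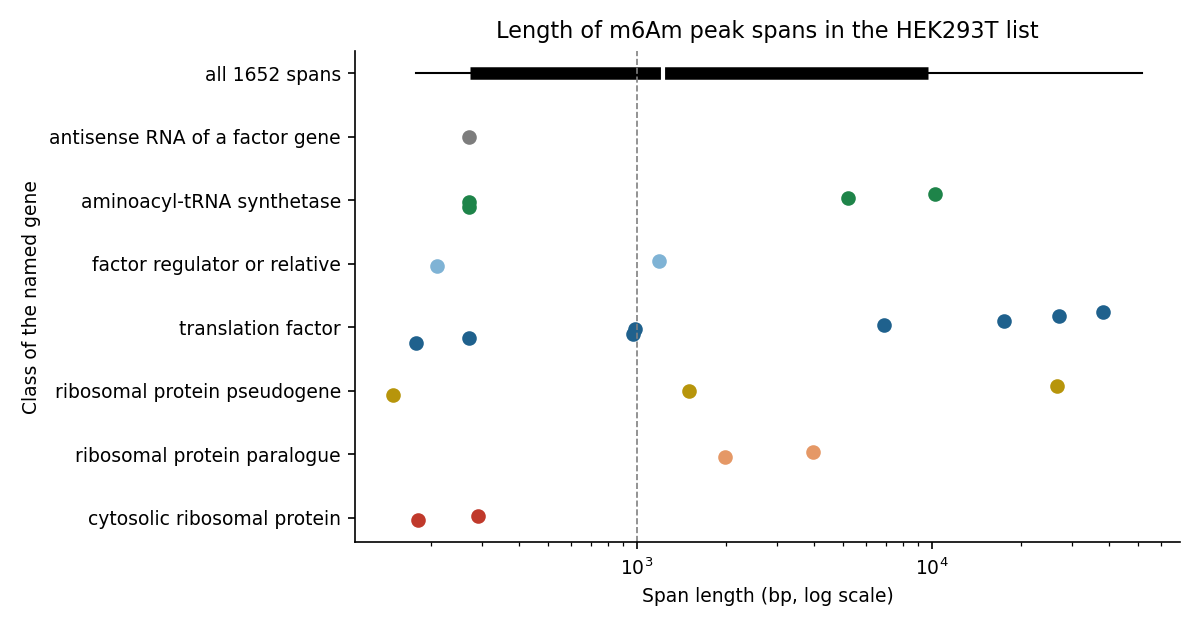
Length of each member span in bp on a log scale, by class of the named gene. The bar at the top gives the middle 50% of all 1652 spans with their median, its thin line the 5th to 95th percentile, and the dashed line 1000 bp. Ribosomal protein spans are 181 and 289 bp, and translation factor spans reach from 178 to 37944 bp.

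The stress lists hold peaks that the authors called as different between stressed and untreated cells. The hypoxia list names AARS, RPL23AP7, RPL7L1 and RPS14P3. By name it holds 0 of 79 cytosolic ribosomal protein genes (upper bound 4.64%), 0 of 49 translation factor genes (7.27%) and 1 of 37 synthetase genes (2.7%, 0.479 to 13.8%), against 1.81% of all protein-coding genes. Counted by annotated TSS in a hypoxia span, whatever name the line carries, the numbers of the 3 families are the same, against 1.92% of all. Of the 22 HEK293T member spans, 3 overlap a hypoxia span (13.6%, 4.75 to 33.3%), close to the 13.5% of all HEK293T lines. They are RPL23AP7, RPL7L1 and RPS14P3. Each hypoxia span shares its start or its end with the HEK293T span, and the one for RPS14P3 covers 76.7% of it. For RPL23AP7 the starts differ by 9 bp and the ends by 0, for RPL7L1 the ends differ by 100 bp, and for RPS14P3 the starts are the same and the ends differ by 6185 bp.

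AARS, the cytosolic alanyl-tRNA synthetase gene, is the 1 member listed under hypoxia with no overlapping HEK293T span. Its hypoxia span, chr16:70316597-70323412, is 6816 bp long and covers 2 annotated TSSs. The nearest HEK293T span is 216746 bp away. The RefSeq start of AARS, shown next because it lies inside the hypoxia span, is an adenosine after T, outside the BCA context.
AARS, chr16:70323390-70323419, minus strand: tgaggccggtAcagctgcgcgtctgcggga

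The heat shock list names 0 members and covers 0 annotated TSSs of the 3 families, against 0.337% of all protein-coding genes by name and 0.362% by TSS. In addition, 0 of the 22 member spans overlap a heat shock span (upper bound 14.9%), against 2.54% of all HEK293T lines. With 22 spans, a share of that size is not distinguishable from 0.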

How the data were processed

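The authors trimmed reads with Trim Galore 0.6.6 and cutadapt, used HISAT2 for alignment to hg19 and exomePeak with MACS2 for peaks, and named genes with homer. They kept as m6Am peaks those whose FTO (−) to FTO (+) ratio passed their threshold. How replicates were combined is not given in the sources used here. The deposited values used are positions in bp of outer spans, introns included. Both stress lists also hold the authors' ratio of stressed to untreated cells, which was not used.

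Members were chosen by gene name, and members and family lists were chosen with earlier results of these data known. Every member is named, with family genes whose TSS lies in a span of another name. VIM and genes whose names or TSSs share a span were named after their values were seen. TSSs and exons came from Gencode release 44 on GRCh37. Positions count from 1: 238 starts fell on a plus-strand TSS, and 17 did when shifted by 1 base. Names matched for 1610 of 1652 HEK293T lines. RefSeq starts were placed where 30 bases matched once within 5 kb of the gene. Overlap was counted from 1 bp. Functions were tested on made-up cases. Python 3.11.15, SciPy 1.17.1, samtools 1.23.1 and Matplotlib 3.10.9 were used. No significance test was made.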

Additional observations from a re-analysis of the deposited data

How the results depend on the processing

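No paired analysis was possible because the lists hold 1 set of peaks per condition and no result comes from a test. Of 33 alternatives, 22 left the value within its interval or within 1.5 times the count. Limited to spans of at most 1000 bp, members fell to 11 and the share of translation factor genes to 8.16%, beside 3.58% of all protein-coding genes. By name, the ribosomal protein share was then 2.53% as before. With identical start and end required, 0 of 22 member spans matched the hypoxia list (upper bound 14.9%), an interval that includes the 2.6% of all HEK293T lines. With a 5′-TOP start allowed within 5 bases of the TSS, shares were 85.7% for ribosomal proteins, 51.2% for translation factors and 36.7% for synthetases, beside 28.3% of all listed protein-coding genes. With C followed by at least 6 pyrimidines they were 58.7% for ribosomal proteins, 24.4% for translation factors and 0% for synthetases (upper bound 11.4%), beside 3.45% of all listed protein-coding genes. Any A within 2 bases of the start gave 80% for synthetases, beside 78.5% overall. Chosen after the data were seen, a limit of 100 bp gave 12 spans near a TSS, and counting starts in place of genes gave a 5′-TOP share of 60.3% for ribosomal proteins. The counts of stress lists by TSS were added then too. The mRNA level of each gene was not analysed here, and the lists hold no depth.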
